A study of Mus musculus with 6 samples.

Results

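The integrated stress response genes described here are 43 of the 14669 rows of a liver RNA-seq table. They were chosen by symbol as genes linked to the transcription factor ATF4, and fall into 13 signalling genes, 14 genes of amino acid supply and 16 cytosolic aminoacyl-tRNA synthetases. All 43 were present, with the methionyl-tRNA synthetase Mars listed as Mars1. Wild-type C57BL/6J males aged 8 weeks supplied the livers. Hydrodynamic injection, which drives DNA into liver cells by pressure, delivered 25 µg of a plko plasmid to every mouse in a volume of 2.5 ml. On day 3 concanavalin A, a lectin that activates T cells and causes acute hepatitis, was given intravenously at 15 mg/kg, and tissue was taken 6 h later. The control plasmid carried a scramble hairpin (libraries Sc3, Sc4 and Sc5) and the other a hairpin against Bicd2, a dynein adaptor (sh1, sh3 and sh6). There were thus 3 libraries per group, and no library from a liver without concanavalin A. Only part of the liver takes up plasmid by this route, and no label ties the libraries to different animals, so the p-values measure the spread between these libraries, which may be technical.

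In the integrated stress response, kinases that sense amino acid shortage, endoplasmic reticulum stress, viral RNA or haem deficiency phosphorylate the translation factor eIF2. General protein synthesis then slows while ATF4, whose messenger RNA carries upstream open reading frames, is translated more. ATF4 dimerises with C/EBP proteins and drives genes for amino acid uptake, amino acid synthesis and tRNA charging, together with feedback factors that restore translation and factors tied to cell death. The level of Atf4 messenger RNA is therefore only part of the activity of the pathway, and protein and eIF2 phosphorylation were not measured here.

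ATF4 and C/EBP dimers bind a composite element. Stretches upstream of the transcription start are shown for 6 members to display this element, which some signalling, supply and charging genes hold and most do not. The letters searched were TGATGNAA on both strands in the 250 bases before each annotated start in RefSeq's promoter table (GRCm38.p6). Of the 43 members 33 were matched there, and 8 of these (24.2%) held the element in at least 1 promoter, against 3.91% of all 27025 genes in the table. By role this was 3 of 12 signalling, 2 of 12 supply and 3 of 9 synthetase genes. The other 2 members with a match were Vldlr and Pycr1. The ER stress element, CCAAT and CCACG with 9 bases of any kind between them, was in no member promoter and in 0.13% of all genes. Since the members were chosen as genes linked to ATF4, their higher share of the composite element is no separate support for that link. A match is a description of the letters and not of binding, and no match says only that these letters are not in this window. Capitals mark the element, which lies on the opposite strand in all of these but Asns, and each run is given 5′ to 3′ on the gene's strand:
Nupr1 (chr7:126625547-126625606, minus strand, element beginning 110 bases before the start): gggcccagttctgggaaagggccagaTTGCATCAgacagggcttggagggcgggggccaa
Asns (chr6:7693210-7693258, minus strand, 23 bases before the start): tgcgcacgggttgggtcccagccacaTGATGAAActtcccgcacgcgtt
Tars (chr15:11399659-11399699, minus strand, 15 bases before the start): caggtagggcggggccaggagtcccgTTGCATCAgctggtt
Gars (chr6:55037945-55038000, plus strand, 30 bases before the start): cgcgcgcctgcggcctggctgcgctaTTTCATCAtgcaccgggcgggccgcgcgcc
Aars (chr8:111033704-111033763, plus strand, 112 bases before the start): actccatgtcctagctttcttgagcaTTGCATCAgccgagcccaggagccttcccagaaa
Chac1 (chr2:119351023-119351082, plus strand, 193 bases before the start): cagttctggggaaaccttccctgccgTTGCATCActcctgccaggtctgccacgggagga
Among these 6, Nupr1, Tars and Gars had all shBicd2 libraries below all scramble libraries, a placing found in 16.5% of all rows of the expression table. Asns, Aars and Chac1 had overlapping groups. Of the other 2 members with a match, Vldlr overlapped and Pycr1 was higher without overlap. A link between the element and the direction of a difference was not tested.

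Each library held 16.03 to 18.93 M reads, a depth read back from the spacing of low values. Values are FPKM, fragments per kilobase of gene and per M counted, and are listed in the library order above. Bicd2 itself measured 4.14, 3.43 and 3.13 FPKM in scramble, against 3.61, 2.57 and 2.97 in shBicd2, so the groups overlapped (p = 0.4 in an exact permutation test, two-sided, whose smallest possible p is 0.1). A lower target was thus not detectable in these livers, and "shBicd2" below means the libraries so labelled. Library sh1 stood apart, with correlations across genes of 0.893 to 0.913 to the scramble libraries, against 0.947 to 0.976 for sh3 and sh6. The sums of some cell type marker lists separated the groups, although the markers within a list did not all go the same way. The summed level of 7 hepatocyte markers was 22277 to 28154 FPKM in scramble and 28246.5 to 36052 FPKM in shBicd2. Sums were lower in shBicd2, without overlap, for 5 sinusoidal endothelial markers (17.6 to 22.1 against 12.4 to 15.3 FPKM), 5 stellate cell markers (37.1 to 45.8 against 20.7 to 32.4 FPKM) and the 3 cholangiocyte markers found (8.14 to 13.2 against 3.51 to 6.76 FPKM), although 3 of 7 hepatocyte, 2 of 5 endothelial, 2 of 5 stellate and 1 of 3 cholangiocyte markers were without overlap taken singly. Of the endothelial markers 3 had positive log2 differences (Stab2 0.05, Clec4g 0.46 and Oit3 0.30), and 3 hepatocyte markers had negative ones. Most of the hepatocyte sum was Alb, which overlapped taken singly, and most of the cholangiocyte sum was Sox9. Sums for neutrophils, recruited monocytes, Kupffer cells, T or NK cells, B cells and erythroid cells overlapped. Taken singly, 2 of 5 neutrophil markers (Csf3r and Cxcr2) and 2 of 5 monocyte or macrophage markers (Cd68 and Adgre1) were lower without overlap, and all 5 neutrophil markers had negative log2 differences, from -0.95 to -0.58. Their part in the results below was not tested, and in whole tissue fewer cells of a type and less RNA per cell cannot be told apart.

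The data were first asked how the 43 members differed between the plasmids. Of the members, 16 (37.2%) had all shBicd2 values below all scramble values, where 16.5% of all rows of the table did, and 3 (6.98%) had all shBicd2 values above, against 5.19% of rows. The groups of the other 24 members overlapped, and 21.7% of all rows did not overlap in either direction. Among the genes tested the shares were 18.7% lower and 5.7% higher. The 16 were spread over the roles, with 5 signalling, 6 supply and 5 synthetase genes, and the 3 higher genes were all supply genes. In limma, 39 members had a mean of at least 1 FPKM and were tested, and 0 of them passed an adjusted p of 0.05, as did 0.0% of the 10152 genes tested. At an unadjusted p below 0.05 there were 13 members lower (33.3%, against 12.7% of genes) and 1 higher (2.56%, against 2.97%). With voom on recovered reads 0 of 38 members passed the adjusted threshold. Unadjusted, 13 were lower (34.2%, against 13.5% of genes) and 1 higher (2.63%, against 2.51%). Over all genes 1291 were lower and 302 higher at an unadjusted p below 0.05, a split that moved with the scaling, to 874 lower and 633 higher under size factors. Quantile normalization gave 812 lower and 693 higher, and a TPM scale 1768 lower and 181 higher. Members lower were 11 under size factors, 10 under quantile normalization and 14 as TPM, and members higher were 2, 2 and 1. With size factors from the median of ratios, the members without overlap were 10 lower (23.3%, against 10.7% of rows) and 4 higher (9.30%, against 9.97%). The 6 genes that no longer separated were Nupr1, Mthfd2, Slc3a2, Slc7a1, Dars and Gars. Without sh1 the lower members were again 16 (37.2%, against 26.4% of rows), and without sh3 they were 23 (53.5%, against 22.6% of rows).

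The shBicd2 libraries did not contribute alike. Library sh1 held the lowest value of 29 of the 43 members, while it held the lowest value of 24.4% of all rows. Of the 43 members 34 lay below every scramble value in sh1, where 36.9% of all rows did. In sh6 this held for 23 of the 43, against 37.8% of rows, and in sh3 for 21, against 53.8% of rows. In sh3 the members' share was thus below that of all rows. Among the 13 signalling genes 12 had their lowest value in sh1, and 4 had their highest in sh3.

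**Figure D1:**
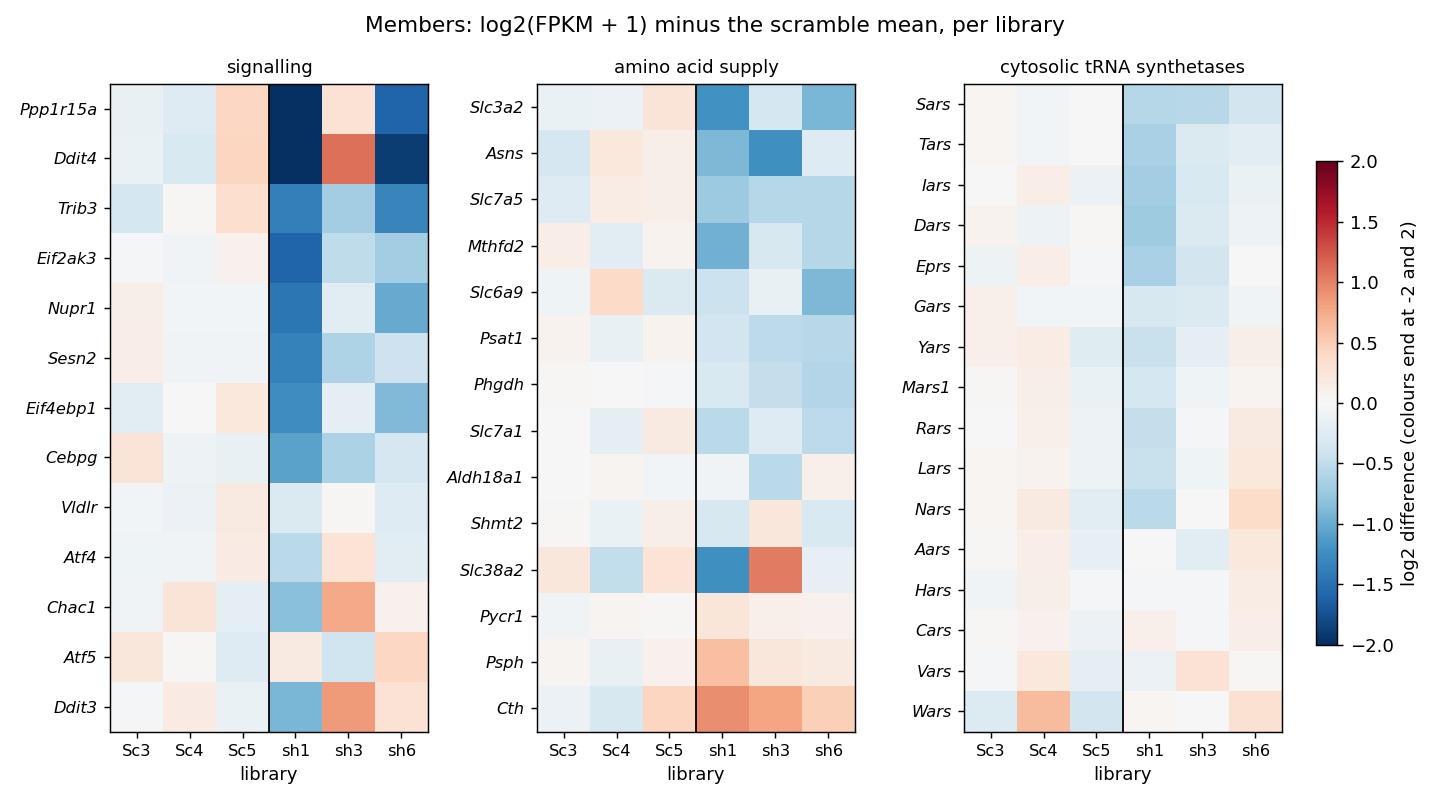
Heat map of log2(FPKM + 1) minus the scramble mean for each member (rows, by role) in each library (columns); blue is below and red above the scramble mean, and colours end at -2 and 2. In sh1 12 of the 13 signalling genes have their lowest value, Sesn2 and Cebpg are bluer in sh3 than in sh6, and Ddit4, Ddit3, Chac1 and Slc38a2 are red in sh3.

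Among the signalling genes the transcription factor at the centre, Atf4, did not separate the groups, while 5 genes downstream or upstream of it did. Atf4 (chromosome 15, 80255184 to 80257541) measured 69.5, 70.6 and 83.1 FPKM in scramble, against 50.5, 89.8 and 63.6 in shBicd2. Its highest and its lowest value were both shBicd2 libraries, and its log2 difference was -0.16 (95% interval -0.71 to 0.38, limma adjusted p = 0.763). Atf5, a relative under similar translational control, also overlapped, at 58.4 to 82.0 FPKM in scramble and 52.4 to 93.0 FPKM in shBicd2.

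Trib3, a pseudokinase that restrains ATF4, showed the largest separation of the signalling genes without overlap. Trib3 measured 4.79, 6.46 and 8.28 FPKM in scramble, against 1.85, 3.54 and 1.94 in shBicd2, a 2.66-fold lower mean. The log2 difference of Trib3 was -1.13 ± 0.25 (SE, n = 3 per group), with an adjusted p of 0.169 in limma over all genes. Eif2ak3, which encodes the PERK kinase that phosphorylates eIF2 during endoplasmic reticulum stress, measured 9.73, 9.36 and 10.5 FPKM in scramble, against 2.57, 6.65 and 5.71 in shBicd2 (log2 difference -0.93 ± 0.28, adjusted p = 0.206). The scramble values of Eif2ak3 lay close together, and sh1 was the lowest shBicd2 library.

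Sesn2, the leucine-binding sestrin that restrains mTORC1, measured 7.20, 6.18 and 6.17 FPKM in scramble, against 1.94, 3.88 and 4.62 in shBicd2 (log2 difference -0.80 ± 0.25, adjusted p = 0.214). Cebpg, a C/EBP partner of ATF4 at the composite element, measured 23.4, 17.9 and 17.3 FPKM in scramble, against 8.69, 12.2 and 15.1 in shBicd2 (-0.68 ± 0.23, adjusted p = 0.229). Nupr1, a small stress-induced chromatin protein whose promoter stretch is printed above, measured 4.25, 3.66 and 3.70 FPKM in scramble, against 0.784, 3.21 and 1.41 in shBicd2 (-0.89 ± 0.30, adjusted p = 0.229). For Cebpg and Sesn2 the highest shBicd2 library was sh6, and for Nupr1 it was sh3, close under the scramble values. Eif4ebp1, which encodes a repressor of cap-dependent translation, measured 31.0, 36.1 and 41.7 FPKM in scramble, against 14.7, 31.2 and 19.1 in shBicd2, so that sh3 overlapped the lowest scramble library (-0.77 ± 0.28, adjusted p = 0.254).

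A second set of signalling genes, picked out after their values were seen, had sh3 inside or above the scramble range and sh1 below it. Atf4, Eif4ebp1 and Vldlr shared this placing. The order itself, with sh1 lowest and sh3 highest among the shBicd2 libraries, was also that of Trib3, Eif2ak3 and Nupr1, there below scramble. Ddit3, which encodes the pro-apoptotic factor CHOP, measured 13.2, 15.3 and 12.3 FPKM in scramble, against 6.74, 25.3 and 16.7 in shBicd2. Chac1, a glutathione-degrading enzyme and a sensitive ATF4 target, measured 3.88, 5.14 and 3.51 FPKM in scramble, against 1.87, 7.68 and 4.42 in shBicd2. In both genes sh1 lay below and sh3 above the scramble range, while sh6 lay above it for Ddit3 and inside it for Chac1.

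Ddit4, an inhibitor of mTORC1 that also answers hypoxia and glucocorticoids, measured 39.9, 35.2 and 59.3 FPKM in scramble, against 5.96, 95.3 and 10.96 in shBicd2. Ppp1r15a, the stress-induced eIF2 phosphatase subunit GADD34, measured 19.4, 17.8 and 28.9 FPKM in scramble, against 3.02, 26.6 and 6.48 in shBicd2. Libraries sh1 and sh6 were far below scramble in both genes and sh3 was not, so the mean difference depended on sh3. Without it the log2 differences were -2.29 for Ddit4 and -2.04 for Ppp1r15a (adjusted p = 0.0347 and 0.0384 in limma), and with all libraries they were -1.16 and -1.27 (adjusted p = 0.564 and 0.391). Trib3 (adjusted p = 0.0384), Nupr1 (0.0347) and the supply gene Slc3a2 (0.0474) also passed without sh3, in a fit where 289 of all genes did. Vldlr, a lipoprotein receptor, was too low to be tested, at 0.155 to 0.421 FPKM in scramble and 0.0272 to 0.281 FPKM in shBicd2.

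**Figure D2:**
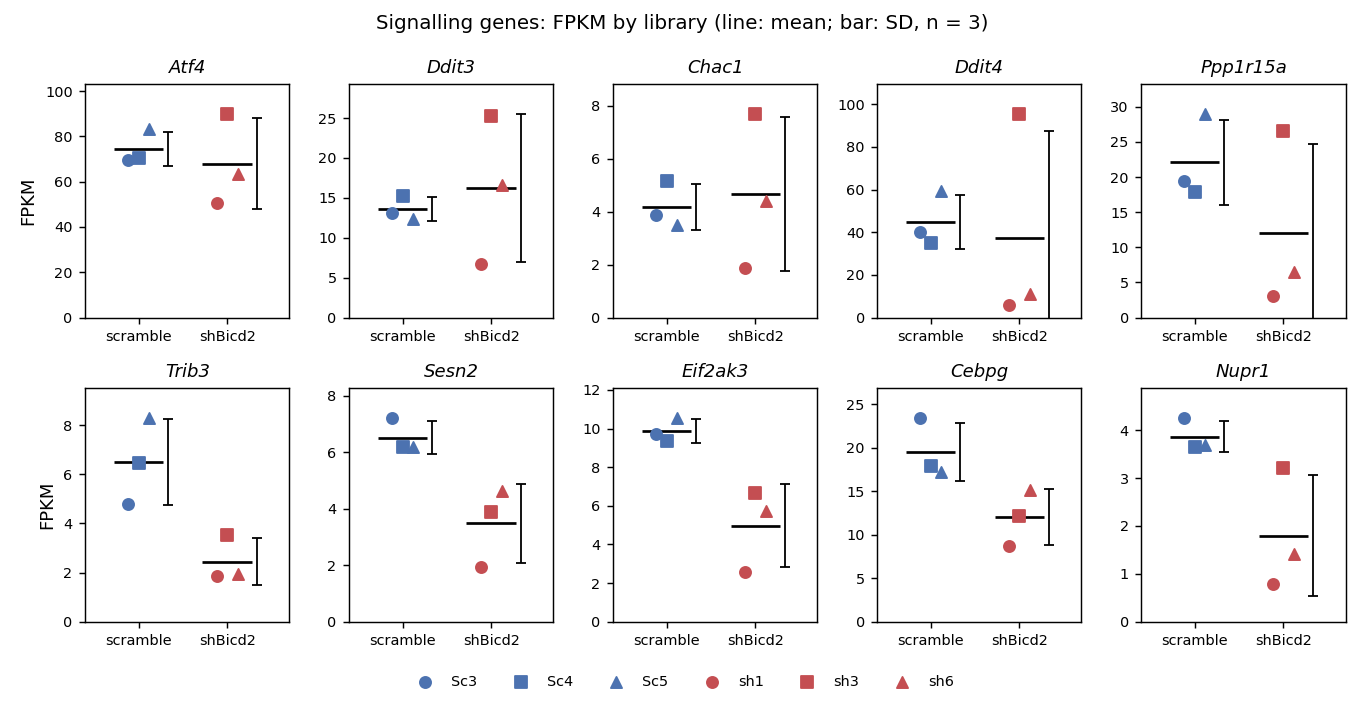
FPKM of 10 signalling genes in each library (points), with the mean (line) and SD (bar, n = 3) of each group. In the upper row sh3 is the highest shBicd2 library and sh1 lies below the scramble points. In the lower row all shBicd2 points lie below all scramble points, with sh3 again the highest of them for Trib3, Eif2ak3 and Nupr1.

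Ratios of genes within a library do not change with the scaling between libraries, and were computed for pairs chosen after the values were seen. Ddit3 over Trib3 was 2.75, 2.37 and 1.49 in scramble and 3.64, 7.14 and 8.59 in shBicd2. Chac1 over Trib3 was 0.810, 0.797 and 0.424 in scramble and reached 2.17 in sh3 and 2.28 in sh6, with sh1 lower than these. Both ratios were higher in each shBicd2 library than in any scramble library. Trib3 was already known to be lower in every shBicd2 library, and Ddit3 and Chac1 to overlap. The ratios therefore describe the gap in these libraries and are no separate test of whether the genes differed by another factor.

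In amino acid supply, the first enzymes of serine synthesis were lower and the last was higher in shBicd2. Phgdh, which commits the glycolytic intermediate to serine, measured 1.18, 1.12 and 1.10 FPKM in scramble, against 0.727, 0.533 and 0.425 in shBicd2, from 20 to 52 reads. Its mean was under the filter for testing, and an exact permutation test gave its smallest possible two-sided p, 0.1. Psat1, the aminotransferase of the next step, measured 1.704, 1.31 and 1.701 FPKM in scramble, against 0.965, 0.792 and 0.745 in shBicd2 (log2 difference -0.49 ± 0.13, limma adjusted p = 0.198). Psph, the phosphatase that releases serine, measured 1.29, 0.979 and 1.34 FPKM in scramble, against 2.34, 1.56 and 1.49 in shBicd2 (0.34 ± 0.16, adjusted p = 0.374).

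None of these 3 enzymes had overlapping groups, and their proportions, chosen after the values were seen, were compared within each library. Psph over Phgdh was 1.09, 0.873 and 1.21 in scramble and 3.22, 2.92 and 3.50 in shBicd2. Psph over Psat1 was 0.754, 0.747 and 0.788 in scramble and 2.42, 1.97 and 1.998 in shBicd2. Both ratios had to separate the groups, since Psph lay above and Phgdh and Psat1 below every scramble value. They give the size of the gap and no further support. Phgdh over Psat1 overlapped, at 0.649 to 0.856 and 0.570 to 0.753. For Psph, 10.4% of the exon bases lie over Cct6a on the opposite strand, and the strand setting of the counting is not given.

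Of the mitochondrial folate enzymes, which take up serine carbon, Mthfd2 had groups without overlap and Shmt2 did not. Mthfd2 measured 4.98, 3.74 and 4.76 FPKM in scramble, against 1.81, 3.40 and 2.68 in shBicd2 (log2 difference -0.62 ± 0.20, adjusted p = 0.224). Shmt2, an abundant liver enzyme, overlapped at 66.3 to 78.6 FPKM and 58.2 to 85.3 FPKM (-0.13, 95% interval -0.60 to 0.33). Cth, which makes cysteine from cystathionine, was the only member higher in shBicd2 at an unadjusted p below 0.05. Cth measured 48.2, 41.6 and 71.1 FPKM in scramble, against 100.5, 91.0 and 73.4 in shBicd2 (0.73 ± 0.24, adjusted p = 0.224), and sh6 lay just above Sc5, so that on the TPM scale the groups overlapped.

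Asns, asparagine synthetase and the classic target of the composite element, measured 5.14, 7.89 and 7.41 FPKM in scramble, against 3.14, 2.31 and 5.43 in shBicd2 (log2 difference -0.79 ± 0.27, adjusted p = 0.236). Library sh6 lay above Sc3, so the groups overlapped. The proline enzymes were scarce. Aldh18a1, the first of them, ranged over 1.27 to 1.44 FPKM in scramble and over 0.621 to 1.53 FPKM in shBicd2, lowest in sh3. Pycr1, the last, measured 0.0429, 0.142 and 0.111 FPKM in scramble, against 0.292, 0.184 and 0.161 in shBicd2, from 3 to 21 reads and untested (exact permutation p = 0.1, the smallest possible).

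Both chains of the LAT1 amino acid transporter were lower without overlap, although under size factors Slc7a5 stayed so and Slc3a2 did not. Slc7a5, the light chain that moves large neutral amino acids, measured 1.85, 2.77 and 2.67 FPKM in scramble, against 1.05, 1.30 and 1.28 in shBicd2, a 2.01-fold lower mean (log2 difference -0.63 ± 0.16, adjusted p = 0.182). Slc3a2, its heavy chain, measured 21.9, 22.1 and 29.0 FPKM in scramble, against 9.82, 18.7 and 12.3 in shBicd2 (-0.83 ± 0.25, adjusted p = 0.205). The ratio of Slc7a5 to Slc3a2 overlapped, at 0.0845 to 0.125 in scramble and 0.0693 to 0.107 in shBicd2.

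Slc7a1, a cationic amino acid carrier, measured 0.804, 0.609 and 1.05 FPKM in scramble, against 0.252, 0.522 and 0.266 in shBicd2, without overlap but under the filter (exact permutation p = 0.1). Slc38a2, a neutral amino acid carrier induced by starvation, measured 34.3, 20.6 and 35.5 FPKM in scramble, against 11.97, 61.4 and 26.1 in shBicd2, with the sh1-low, sh3-high order of Ddit3 and Chac1. Slc6a9, a glycine carrier, overlapped at 2.85 to 5.10 FPKM and 1.53 to 3.22 FPKM (adjusted p = 0.386), and 27.8% of its exon bases lie over Ccdc24 on the opposite strand.

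**Figure D3:**
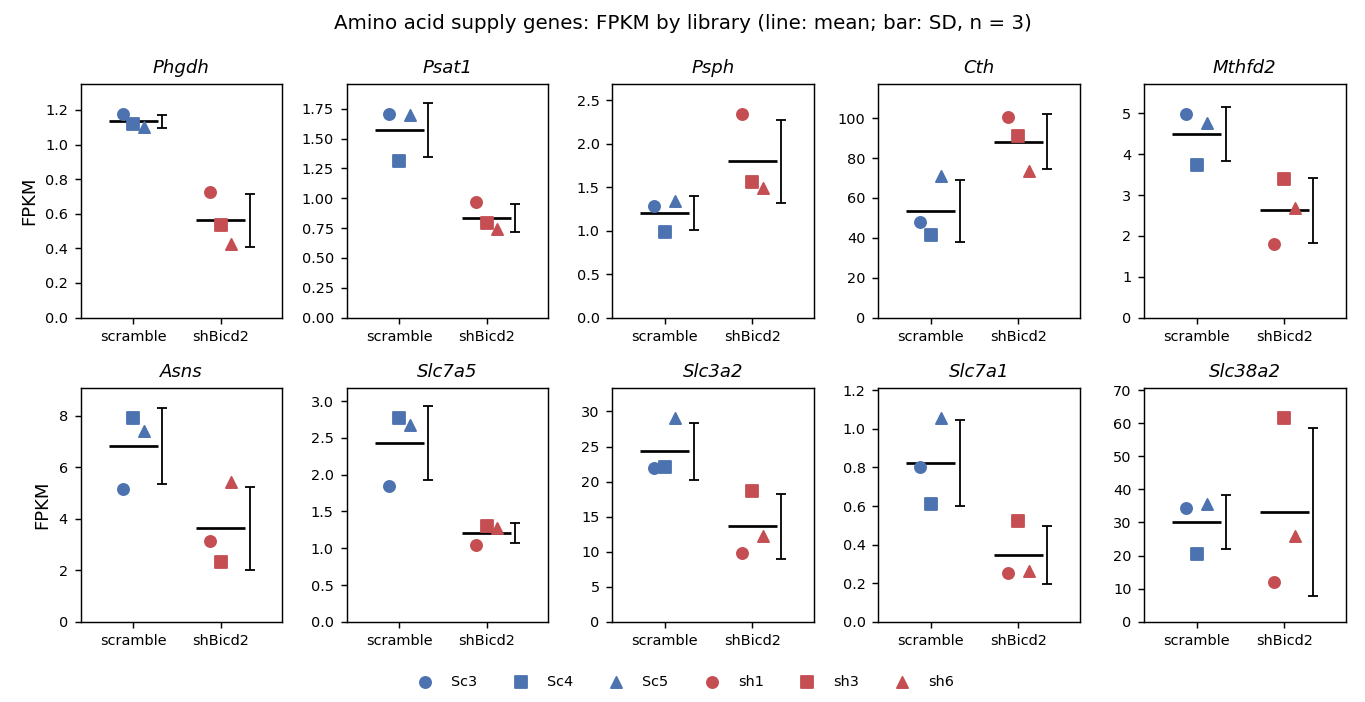
FPKM of 10 amino acid supply genes in each library (points), with the mean (line) and SD (bar, n = 3) of each group. Phgdh, Psat1, Mthfd2, Slc7a5, Slc3a2 and Slc7a1 lie lower in every shBicd2 library than in any scramble library, Psph and Cth lie higher, and Asns and Slc38a2 overlap.

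Cytosolic aminoacyl-tRNA synthetases join each amino acid to its tRNA. In the main limma fit their median difference lay closer to 0 than those of the other roles, but the gap to the supply genes depended on the setting. The median log2 difference was -0.12 over the 16 synthetases, all tested, against -0.78 over 12 tested signalling genes, -0.49 over 11 tested supply genes and -0.06 over all genes tested. No test of the difference between roles was made. With a mean of at least 5 FPKM the synthetase and supply medians were both -0.13, and the signalling median was -0.72. Without sh6 the medians were -0.27 for synthetases, -0.31 for supply and -0.81 for signalling genes. In that fit 5 synthetases (31.25%, against 11.8% of genes) were lower at an unadjusted p below 0.05. The synthetase median was -0.22 on the TPM scale, -0.063 with quantile normalization, -0.034 with size factors and -0.0053 without sh1, and it turned to 0.042 with array weights, where 6 of 16 were negative. The synthetases ranged from -0.50 to 0.11, with 11 of 16 negative, where 5944 of the 10152 genes were negative. At an unadjusted p below 0.05 there were 2 lower (12.5%, against 12.7% of all genes tested) and 0 higher.

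Sars, the seryl-tRNA synthetase, had the largest difference. Sars measured 19.0, 17.7 and 18.6 FPKM in scramble, against 12.1, 12.3 and 14.1 in shBicd2, a 1.44-fold lower mean with libraries close together in each group (log2 difference -0.50 ± 0.14, limma adjusted p = 0.198). Tars, the threonyl enzyme, measured 18.7, 17.4 and 18.1 FPKM in scramble, against 11.2, 14.6 and 15.3 in shBicd2 (-0.38 ± 0.16, adjusted p = 0.316). In both genes every shBicd2 library lay below the lowest scramble library, at most 14.1 against 17.7 FPKM for Sars and 15.3 against 17.4 FPKM for Tars. The unadjusted limma p of Tars was 0.049, and it was 0.13 with size factors and 0.094 with quantile normalization.

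In the other synthetases without overlap the groups nearly touched. Iars, the isoleucyl enzyme, measured 9.78, 10.96 and 8.98 FPKM in scramble, against 5.74, 7.76 and 8.91 in shBicd2 (-0.38 ± 0.18, adjusted p = 0.369). Dars, the aspartyl enzyme, measured 22.1, 19.55 and 21.3 FPKM in scramble, against 12.5, 16.9 and 19.52 in shBicd2 (-0.37 ± 0.19, adjusted p = 0.395). Gars, the glycyl enzyme whose promoter stretch is printed above, measured 20.1, 18.004 and 18.1 FPKM in scramble, against 14.8, 15.2 and 17.8 in shBicd2 (-0.22 ± 0.15, adjusted p = 0.490). With size factors Iars, Sars and Tars kept groups without overlap. Eprs, the bifunctional glutamyl and prolyl enzyme, measured 11.3, 13.45 and 11.8 FPKM in scramble, against 7.40, 9.22 and 12.03 in shBicd2 (-0.34 ± 0.19, adjusted p = 0.429).

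The remaining 10 synthetases, Aars, Cars, Hars, Lars, Mars1, Nars, Rars, Vars, Wars and Yars, had overlapping groups, log2 differences of -0.17 to 0.11 and adjusted p from 0.709 to 0.995. These did not show equal levels, since the 95% interval of Hars ran from -0.31 to 0.36 and that of Wars from -0.55 to 0.77. Wars, the tryptophanyl enzyme that interferon gamma induces, measured 24.0, 45.8 and 22.4 FPKM in scramble, against 29.8, 29.1 and 36.2 in shBicd2, so its widest spread lay within scramble. Aars, the alanyl enzyme, was at 27.0 to 33.4 FPKM in scramble and 26.2 to 35.3 FPKM in shBicd2. Of the Aars exon bases 14.3% lie over Exosc6 on the same strand. The pair Sars and Hars was also chosen after the values were seen. Sars over Hars within a library was 1.19, 0.976 and 1.153 in scramble and 0.737, 0.754 and 0.758 in shBicd2. Since Sars was already known to separate the groups, this ratio gives the size of the gap and no further support.

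**Figure D4:**
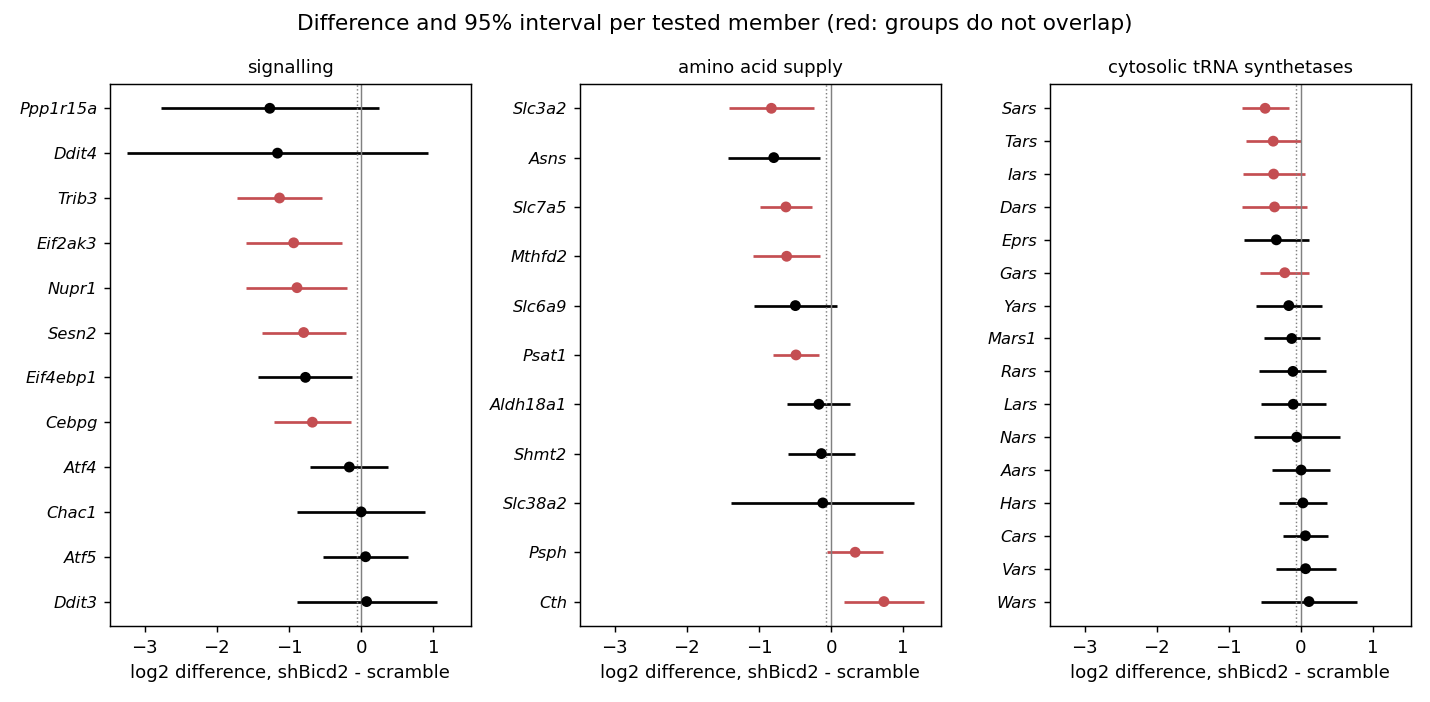
Log2 difference, shBicd2 minus scramble, with its 95% interval (horizontal axis) for each tested member by role; red marks members whose groups do not overlap, the solid line is 0 and the dotted line the median of all genes tested at -0.06. Signalling and supply genes spread from -1.27 to 0.73, and the synthetases stay between -0.50 and 0.11.

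Genes around these members in the pathway were taken from further lists. Counts for each list are to be read beside the 12.7% of all genes tested that were lower and the 2.97% that were higher at an unadjusted p below 0.05. Among 14 genes for the other eIF2 kinases, eIF2, eIF2B and the phosphatase subunit and adaptor, 1 was lower and 0 higher at an unadjusted p below 0.05, with a median log2 difference of -0.12. Eif2s3x, the gamma subunit of eIF2, measured 15.4, 13.3 and 13.6 FPKM in scramble, against 4.90, 9.30 and 10.4 in shBicd2 (-0.77 ± 0.26, limma adjusted p = 0.229). Eif2s1, the alpha subunit that is phosphorylated, measured 10.6, 11.5 and 11.01 FPKM in scramble, against 7.23, 8.38 and 10.1 in shBicd2 (adjusted p = 0.356). Nck1, an adaptor linked to eIF2 dephosphorylation, overlapped at 12.8 to 13.9 FPKM and 4.02 to 13.9 FPKM (adjusted p = 0.386).

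Other genes linked to ATF4 had a median of -0.94 over 15 tested, with 6 lower and 0 higher at an unadjusted p below 0.05. Many of them also answer other stress pathways. Jdp2, a repressor of AP-1 type promoters, measured 4.50, 3.61 and 5.66 FPKM in scramble, against 0.994, 2.24 and 1.52 in shBicd2 (-1.12 ± 0.22, adjusted p = 0.152). Nfe2l2, which encodes the antioxidant factor NRF2, measured 36.5, 39.9 and 45.3 FPKM in scramble, against 16.0, 26.4 and 18.1 in shBicd2 (-0.999 ± 0.213, adjusted p = 0.168). Atf3, a stress-induced repressor, had a difference of -3.15 ± 0.92 (adjusted p = 0.201), with sh3 at 49.1 FPKM between the other shBicd2 libraries and the scramble minimum of 65.7 FPKM.

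Enzymes and carriers near the supply members had a positive median of 0.16 over 14 tested genes, with 1 lower and 0 higher at an unadjusted p below 0.05. Mthfd1l, the mitochondrial formate-releasing enzyme that acts after Mthfd2, measured 2.88, 2.06 and 3.80 FPKM in scramble, against 0.704, 1.37 and 0.905 in shBicd2 (-0.96 ± 0.21, adjusted p = 0.169). Its cytosolic counterpart Mthfd1 measured 15.1, 16.9 and 17.1 FPKM in scramble, against 36.0, 20.1 and 19.2 in shBicd2 (0.53 ± 0.25, adjusted p = 0.361), a difference that lay mainly in sh1. Gcsh, of the glycine cleavage system, overlapped by sh6 only, at 18.6 to 22.9 FPKM and 22.3 to 42.8 FPKM (adjusted p = 0.361).

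Mitochondrial tRNA synthetases, which charge tRNAs for the organelle's own ribosomes, had a median of 0.05 over 16 tested genes, with 0 past an unadjusted p of 0.05 in either direction and 0 past an adjusted p of 0.05 in limma. Wars2, Cars2 and Pars2 had the smallest p among them (adjusted p from 0.417 to 0.498). The cytosolic synthetases outside the members and the complex scaffolds had a median of -0.10 over 7 genes, again with 0 past an unadjusted p of 0.05. Aimp2, a scaffold, and Farsb and Farsa, the phenylalanyl enzyme's subunits, had the smallest p among them (adjusted p from 0.515 to 0.664).

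Averaged over a list's tested genes, each centred on its mean over the libraries, the signalling genes lay at 0.29, 0.28 and 0.38 in scramble and at -0.96, 0.32 and -0.32 in sh1, sh3 and sh6 on the log2 scale. The supply genes lay at 0.11, 0.07 and 0.26 in scramble and at -0.28, 0.02 and -0.17 in shBicd2. All genes tested lay at 0.052, 0.052 and 0.028 in scramble and at 0.0026, -0.123 and -0.0129 in shBicd2. Relative to them, the supply genes in sh3 lay at 0.14, inside the scramble range of 0.02 to 0.23, so the groups overlapped. The synthetases lay at 0.08, 0.19 and -0.04 in scramble and at -0.29, -0.08 and 0.13 in shBicd2, with overlap in sh6. The signalling average in sh3 lay inside the scramble range, and relative to all genes it lay above it, at 0.44 against 0.23 to 0.36, while Trib3, Eif2ak3, Sesn2 and Cebpg in sh3 were below every scramble library.

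**Figure D5:**
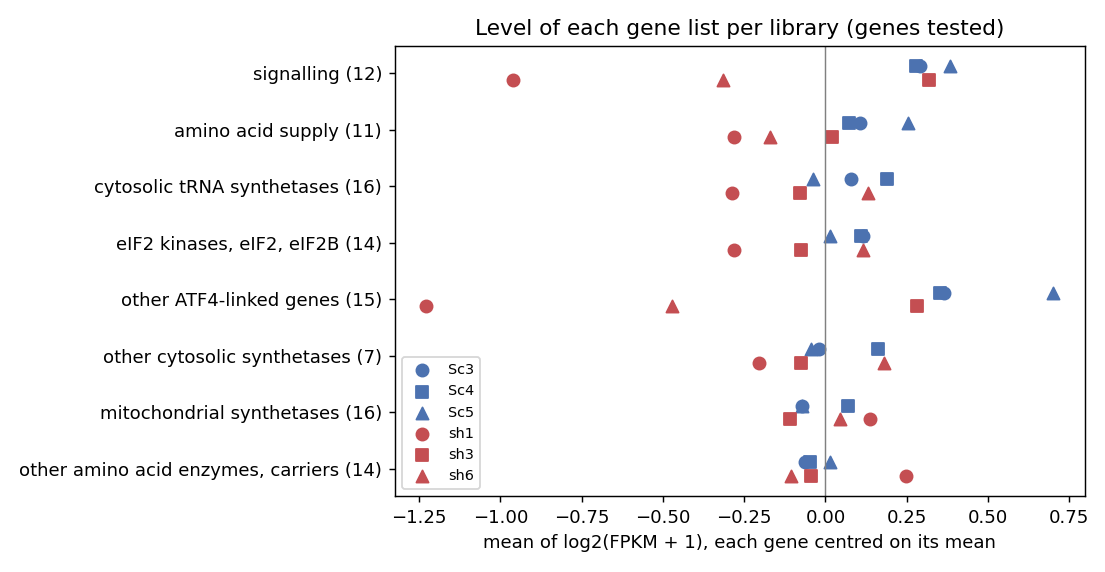
Mean of log2(FPKM + 1) over the tested genes of each list, each gene centred on its mean over 6 libraries (horizontal axis), for the members by role and 5 surrounding lists; blue is scramble and red shBicd2, with 1 symbol per library. The signalling genes and the other ATF4-linked genes spread widest, from -0.96 to 0.38 for the former, with sh1 lowest, and the mitochondrial synthetases stay near 0.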

How the data were processed

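The authors deposited FPKM, 1 column per library (14669 rows). HISAT2 2.0.5, featureCounts 1.5.0-p3 and mm10 are named per the submitters' processing notes. For the annotation, strand setting and filters, the entry is: not given in the sources used here. FPKM divides by gene length and library total, so a few abundant genes can shift the others. Column names give the group but no labelled replicate. Depth was recovered from the steps in FPKM with GENCODE M21 exon lengths (14340 genes matched, 14064 within 0.02 of a whole read in all libraries); intervals reflect the libraries' spread.

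Values were set to log2(FPKM + 1), which understates changes of low genes. The 10152 genes whose mean reached 1 FPKM were fitted with limma 3.58.1 in R 4.3.3 (eBayes with trend) and adjusted by Benjamini-Hochberg at 0.05. The steps were tested on simulated data. Members and lists were chosen with earlier results of these data known. Every member is named. Library values are given for Atf4, for members without overlap or with an unadjusted p below 0.05 and, in a role with fewer than 6 of these, for those of smallest p up to 6. The 3 genes of smallest p are named from each surrounding list, and promoters are shown for the 6 members with a match and the smallest p, outside chromosome 18. Gene coordinates are GRCm38. Alternatives were pseudocounts, filters, scalings, eBayes settings, array weights and leaving out each library, with limma's voom on recovered reads added after seeing the data.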

Additional observations from a re-analysis of the deposited data

How the results depend on the processing

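No paired analysis was possible because the columns carry no replicate number of the labels. Across 17 alternatives, 590 of 651 values kept their direction and side of the threshold, and 23 members never changed sign. The filters and eBayes settings leave each log2 difference as it was, so no sign could change there. As no member passed in the main fit, keeping the side of the threshold meant staying above it. No member passed an adjusted p of 0.05 except under array weights and without sh3. Array weights gave 15 members (14 lower, 1 higher) and 2709 of all genes. In that fit the weight of library sh6 was 4.67, while sh1 had only 0.18 and sh3 only 0.28. The shBicd2 side thus rested mostly on sh6, and these calls do not draw evenly on the 3 shBicd2 libraries. Without sh3 there were 5 members and 289 of all genes, so leaving out 1 library gave 0 to 5. Members lower at an unadjusted p below 0.05 were 7 with a mean of at least 5 FPKM, where 28 were tested (25%, against 12.1% of genes). Members higher were 2 with size factors (5.13%, against 6.24% of genes) and 2 with quantile normalization (against 6.83%). Without 1 library 0 to 2 were higher (0 to 5.13%, against 1.22 to 9.47% of genes). Members without overlap were 10 lower with size factors (23.3%, against 10.7% of rows). Without 1 library 3 to 5 members were higher without overlap (6.98 to 11.6%, against 6.91 to 19.2% of rows). The supply median was -0.65 and -0.67 with pseudocounts of 0.1 and 0.01, -0.13 with a mean of at least 5 FPKM, -0.67 on the TPM scale, -0.29 with array weights, -0.69 with voom on recovered reads, and -0.58 to -0.31 without 1 library.

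Differences near 0 changed sign, and the cause was not tested. Without 1 library the log2 differences ran from -0.38 to 0.027 (Atf4), -0.11 to 0.29 (Atf5), -0.31 to 0.57 (Ddit3), -0.38 to 0.42 (Chac1), -0.31 to 0.016 (Aldh18a1), -0.69 to 0.44 (Slc38a2), -0.10 to 0.11 (Aars), -0.032 to 0.086 (Hars), -0.27 to 0.063 (Lars), -0.27 to 0.18 (Nars), -0.26 to 0.070 (Rars), -0.047 to 0.17 (Vars) and -0.072 to 0.43 (Wars). On the TPM scale they were -0.033 for Atf5, -0.022 for Ddit3, -0.11 for Chac1, -0.091 for Aars, -0.018 for Cars, -0.064 for Hars and -0.026 for Vars. With array weights they were 0.063 for Aldh18a1, 0.16 for Lars, 0.023 for Mars1, 0.30 for Nars, 0.15 for Rars and 0.040 for Yars. Nars was 0.029 with size factors. Chac1 was -0.039 and -0.045 with pseudocounts of 0.1 and 0.01 and -0.070 with voom. Pycr1, Phgdh, Vldlr and Slc7a1 were not tested because their means were below 1 FPKM, and depth limited Pycr1 most, with 3 to 21 reads.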
